A study of Mus musculus with 8 samples.

Results

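The immunoproteasome and peptide-loading genes are described here as 10 genes, Psmb8, Psmb9, Psmb10, Psme1, Psme2, Tap1, Tap2, Tapbp, Erap1 and Nlrc5, in primary cultured mouse microglia with and without IgG. They were found by their GENCODE symbols among the 55385 gene rows of the deposited count table, 1 row for each symbol, and all 10 passed the filter on low counts, which left 17537 genes to be tested. There were 4 control libraries and 4 libraries of cultures that received IgG at DIV15 (day in vitro 15), at 10 µg/ml and over 24 h. All cultures were of wild-type microglia from the neocortex and hippocampus. The labels call the control cultures untreated, whereas the methods of the study give PBS as the control treatment. Libraries with the same number in both groups carry 1 date in their labels and are called a pair. The cells came from newborn brains pooled in flasks, were shaken off a mixed glial culture and replated before treatment, so that a library is a culture of several animals and not of 1 animal. With the pairs as a block in the fit, p-values measure the spread of the IgG change between pairs of cultures. Without the block they measure the spread between cultures.

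The proteasome cuts cytosolic proteins into peptides. In immune cells and under interferon, its constitutive catalytic subunits are replaced by the inducible subunits encoded by Psmb8, Psmb9 and Psmb10, and the PA28 cap encoded by Psme1 and Psme2 can open the core particle. Peptides are then carried into the endoplasmic reticulum by the TAP transporter, trimmed by ERAP1 and loaded onto MHC class I with the help of tapasin, while NLRC5 is a transactivator of many genes of this route.

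Of the 10 genes, 10 had a fold change above 0 with IgG in the fit that takes pairs as a block (9 when libraries were scaled by their total counts alone, where Nlrc5 was at -0.031, and 9 without pair 4, where Psmb10 was at -0.010). Of all genes tested, 49.1% were above 0 in the fit with pairs as a block, 30.2% with total counts alone and 48.55% without pair 4. The median log2 fold change of the 10 genes was 0.33 against -0.01 over all genes tested. None passed adjustment over all genes. The nearest were Tap1, 1.44-fold (44.2%) higher with an adjusted p of 0.0520, and Tapbp, 1.36-fold higher with an adjusted p of 0.112 (quasi-likelihood test of edgeR, Benjamini-Hochberg adjusted). Over all genes, 0.393% were called higher in this fit. At an unadjusted p under 0.05, 7 of the 10 were higher and 0 were lower, where 6.35% of all genes tested were higher. With total counts alone as the scale this count was 2, Tap1 and Tapbp, where 2098 of 17537 genes passed in either direction, and without pair 2 it was 4, where 1615 of 17550 genes did. The main fit had 1790 of 17537 in either direction. How many genes were higher with total counts alone or without pair 2 was not counted. The criterion of the study, an unadjusted p under 0.01 with an absolute log2 fold change above 0.5, was met by 1 of the 10, Tap1, and by 1.48% of all genes in the higher direction. Without the pairs as a block, 0 of the 10 were called and 0% of all genes were, 0 of the 10 met the criterion of the study against 0.582% of all genes higher, and 4 (Psmb8, Psme1, Psme2 and Tapbp) had an unadjusted p under 0.05 against 4.83% of all genes higher. In bulk RNA, fewer cells that express a gene and less RNA of it per cell cannot be told apart.

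**Figure D1:**
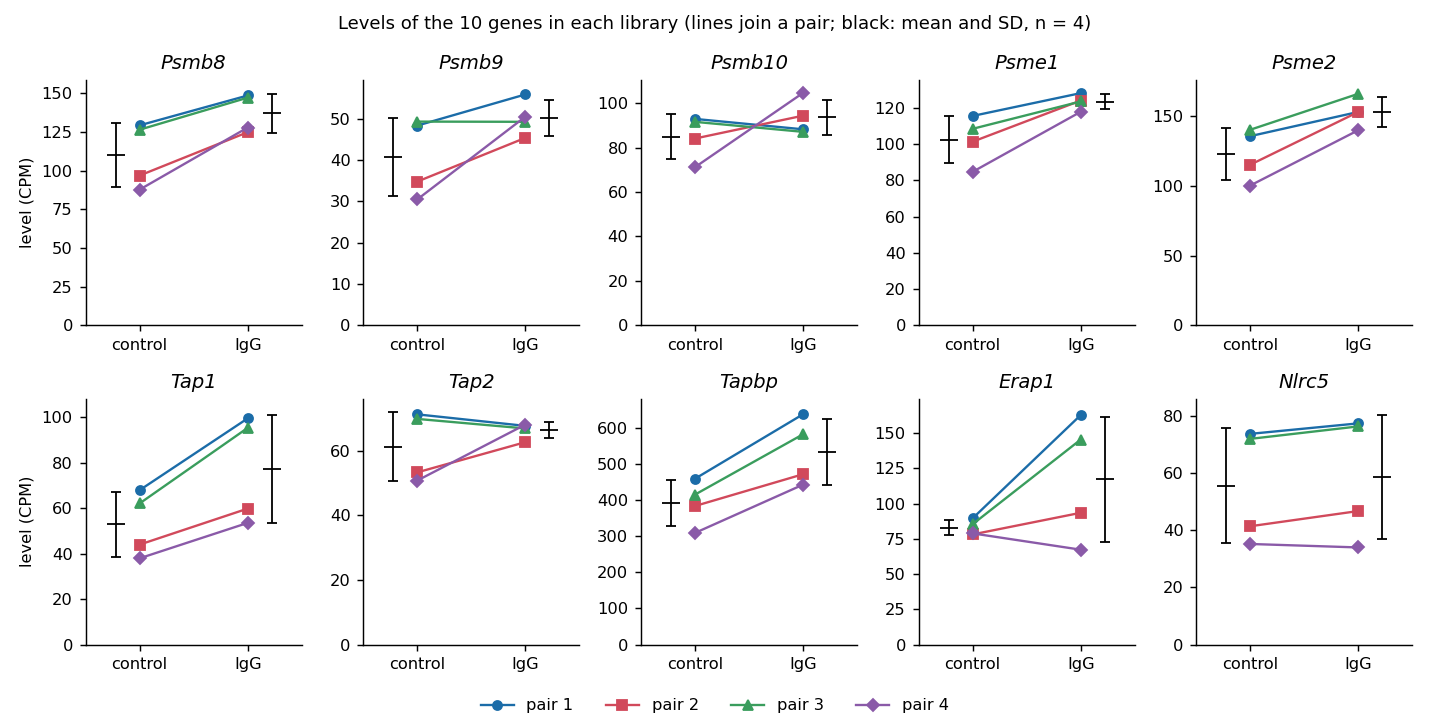
Level of each of the 10 genes in CPM (counts put on 1 library size with TMM, linear axis from 0) in the 8 libraries, with lines joining the control and the IgG library of a pair, and the mean ± SD of each group (n = 4) in black. Tap1 and Tapbp are higher with IgG in all 4 pairs, Nlrc5 differs more between pairs than between groups, and Erap1 spreads from 67.3 to 163 CPM among the IgG libraries.

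Total counts were 21287816 to 23571277 in the control libraries and 22000403 to 23703216 in the IgG libraries. Mitochondrial genes took 2.32 to 2.41% of the counts in the controls but 4.85% and 5.59% in IgG libraries 1 and 3, and 2.21% and 1.97% in IgG libraries 2 and 4. Changes within pairs 1 and 3 went down with the GC content of genes (Spearman's rho over 15639 genes of -0.42 in each), in pair 4 they went up (0.34), and in pair 2 they did neither (-0.03). With exon length they went up in pairs 1 and 3 (0.22 and 0.23), down in pair 4 (-0.41) and neither way in pair 2 (-0.03). These correlations are across genes, which are no independent replicates, and the members are given with and without these trends below. The libraries held the markers of microglia at a summed 5330 to 5594 CPM in the controls and 5503 to 6504 with IgG. P2ry12 and Tmem119, which mark microglia in the intact brain, reached at most 16.0 and 8.79 CPM. Of the 8 microglia markers, 7 were higher and 1 lower with IgG, and 1 was called, Aif1. The 8 markers of the oligodendrocyte lineage, led by Mbp, summed to 1126, 1755, 1157 and 1560 CPM in controls 1 to 4 and to 947, 1654, 955 and 1526 CPM in the IgG libraries. All 8 had a fold change below 0 and 0 were called. The other lists were lower: endothelium at most 161 CPM, almost all of it Flt1, with Cldn5 and Tek at 3 counts or fewer in every library, astrocytes at most 123 CPM (Gfap highest), border-associated macrophages at most 108 CPM (Mrc1 highest), neurons at most 61.6 CPM (Map2 highest), fibroblasts and pericytes at most 7.01 CPM (Col1a1 highest), dendritic cells at most 4.22 CPM (Zbtb46 highest) and lymphocytes at most 0.324 CPM (Cd79a highest, with Cd3e, Cd3d and Nkg7 at 3 counts or fewer in every library). The part that other cells had in the members' values was not tested.

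Several of the genes lie side by side. In GRCm38, Psmb9 (chr17:34181987-34187764, minus strand), Tap1 (chr17:34187553-34197225, plus), Psmb8 (chr17:34197721-34201454, plus) and Tap2 (chr17:34203527-34216321, plus) fill 34.3 kb of the major histocompatibility complex, and Tapbp (chr17:33915899-33929292, plus) ends 253 kb before them. Psme1 (chr14:55578123-55581529, plus) and Psme2 (chr14:55587441-55591113, minus) lie within 13 kb. Psmb10 (chr8:105935735-105938444, minus), Nlrc5 (chr8:94434356-94527272, plus) and Erap1 (chr13:74639568-74693201, plus) stand apart. Each is annotated as a protein-coding gene in GENCODE. The counts are taken here to cover the exons of each gene, since the annotation used for counting is not given.

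Since the products of this route respond to interferon, the promoters were searched for the letters of 2 elements through which interferon acts on its target genes, on both strands: the interferon-stimulated response element, spelled GAAA, any 2 bases and GAAA again, and the gamma-activated site, TTCNNNGAA (N is any base). The RefSeq windows (GRCm38.p6, 250 bases before to 50 after a start) held 8 of the 10 genes, in 9 windows. Tap2 and Nlrc5 had no entry. The first element was in 2 genes, against 3.44% of all 32851 windows, and the second in 1 gene, against 8.30% of the windows. The 3 matches are shown as 30 bases of the plus strand, which is the strand of each of these genes, 5′ to 3′, with the match in capitals. For Erap1 (chr13:74639839-74639868, match from base -4) and Psme1 (chr14:55578493-55578522, from base 10) the element lies on the opposite strand, so that the capitals read TTTC, any 2 bases and TTTC. For Psmb8 (chr17:34198088-34198117, from base -97) the capitals are the gamma-activated site as spelled above. Positions count from the RefSeq start.
Erap1: ccaccttcacTTTCACTTTCggtcccgggc
Psme1: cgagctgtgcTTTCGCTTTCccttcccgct
Psmb8: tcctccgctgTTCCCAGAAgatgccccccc
A match is a stretch of letters and not a measured site, and windows without a match say only that these letters are not in them.

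The catalytic subunits come first. Psmb8, which encodes the chymotrypsin-like subunit LMP7, stood at 129, 96.8, 126 and 87.7 CPM in controls 1 to 4 and at 149, 125, 147 and 128 CPM in IgG libraries 1 to 4. All 4 pairs were higher with IgG, and the groups overlapped because control 1 lay above IgG libraries 2 and 4 and control 3 above IgG library 2. The log2 fold change was 0.33 with a standard error of 0.094 (unadjusted p = 0.00766 and adjusted p = 0.319 in the quasi-likelihood test of edgeR, Benjamini-Hochberg adjusted over all genes, as for every adjusted p of a gene below). Gm20496, an antisense gene that had 1395 to 2163 counts, shares 498 exonic bases with Psmb8, of the 3381 that Psmb8 has. Reads in those bases can be told apart only by strand, and the sources used here do not say whether the counting used it.

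Psmb9, which encodes LMP2, had 48.3, 34.8, 49.3 and 30.4 CPM in the controls and 55.9, 45.4, 49.2 and 50.5 CPM with IgG. Controls 2 and 4 were the lowest libraries, and controls 1 and 3 lay among the IgG libraries. The change within pairs ran from -0.00 in pair 3 to 0.73 in pair 4 on the log2 scale, with 0.21 and 0.38 in pairs 1 and 2. The log2 fold change was 0.33 (SE 0.13, adjusted p = 0.460), which became 0.18 without pair 4 and 0.56 without pairs 1 and 3 together.

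Psmb10, which encodes the trypsin-like subunit MECL-1, had 92.9, 84.1, 91.6 and 71.1 CPM in the controls and 88.2, 94.3, 87.1 and 105 CPM with IgG. Pairs 2 and 4 were higher with IgG and pairs 1 and 3 lower, by 0.07 on the log2 scale in each of the latter. Its log2 fold change, 0.14 (SE 0.12, adjusted p = 0.676), was within the spread between pairs, and was 0.22 without pair 1 or pair 3 and -0.010 without pair 4. The value was 0.043 with total counts alone as the scale and 0.36 without pairs 1 and 3 together. Of the 3 subunits Psmb10 was thus the one whose pairs went both ways by more than 0.05.

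Each inducible subunit takes the place of 1 constitutive subunit, Psmb8 that of Psmb5, Psmb9 that of Psmb6 and Psmb10 that of Psmb7, so the ratio of each couple was taken within a library, on counts per kilobase of exon. Such a ratio does not depend on how the libraries are scaled to each other. Its level does depend on the annotated exon lengths, whereas its change between libraries does not. Psmb8/Psmb5 was 0.780, 0.592, 0.738 and 0.540 in the controls and 1.37, 0.815, 1.21 and 0.589 with IgG. It was higher in every pair, by 0.82, 0.46, 0.71 and 0.13 on the log2 scale (mean 0.53 ± 0.31, SD, n = 4 pairs). Psmb9/Psmb6 was lower in level, from 0.118 to 0.172 in the controls and from 0.143 to 0.219 with IgG, and its change was 0.32 ± 0.097 (SD, n = 4 pairs). Psmb10/Psmb7 was above 1 in every library, from 1.72 to 2.17 in the controls and from 2.04 to 2.30 with IgG, and changed by 0.15 ± 0.078 (SD, n = 4 pairs). The lengths behind that level are 1.705 kb for Psmb10 and 3.421 kb for Psmb7. In CPM, without the lengths, the controls held 71.1 to 92.9 of Psmb10 and 83.1 to 88.1 of Psmb7. All 3 ratios were higher with IgG in 4 of 4 pairs, which gives an exact 2-sided sign-flip p of 0.13 for each (0.13 after Benjamini-Hochberg adjustment over the 3), the smallest that 4 pairs can reach. With length and GC trends removed, an alternative added after seeing the data, Psmb8/Psmb5 changed by 0.48 and Psmb9/Psmb6 by 0.31, each higher in 4 of 4 pairs. Psmb10/Psmb7 was then higher in 3 of 4 pairs, with changes of 0.52, 0.18, 0.60 and -0.06 (mean 0.31, exact sign-flip p = 0.25). Taken without the pairs, the groups overlapped for every ratio, with exact 2-sided permutation p-values of 0.143, 0.2 and 0.114 (each 0.2 after adjustment), where 0.0286 is the smallest possible.

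**Figure D2:**
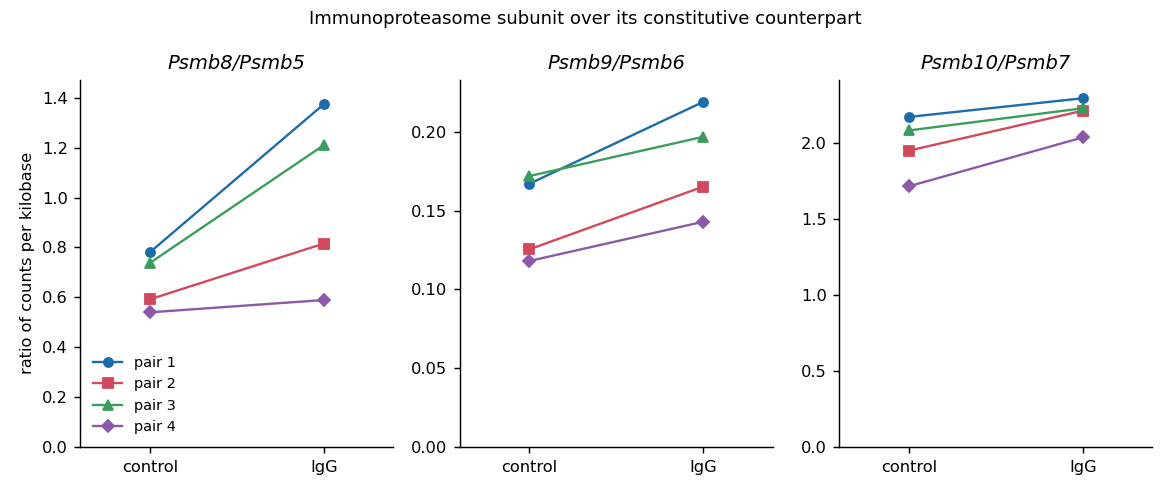
Ratio of counts per kilobase of each immunoproteasome subunit to its constitutive counterpart (linear axes from 0) in the 8 libraries, with lines joining a pair. Each line goes up from control to IgG (with length and GC trends removed, Psmb10/Psmb7 in pair 4 does not), and pair 4 has the lowest ratio of all 4 pairs in both groups.

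Both genes of Psmb8/Psmb5 moved between libraries. Psmb5 was flat across the controls, at 43.2 to 45.6 CPM, but ran from 28.7, 40.7 and 32.3 CPM in IgG libraries 1 to 3 to 57.7 CPM in IgG library 4. Its changes within pairs were -0.61, -0.10, -0.50 and 0.42 (log2 fold change -0.20, adjusted p = 0.675). The fitted changes of Psmb6 and Psmb7 were 0.01 and -0.01. Over the 3 constitutive subunits the median change was -0.18 and -0.20 in pairs 1 and 3 and 0.42 in pair 4, so that the pairs differed in the denominators as well.

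The PA28 cap is made of both Psme1 and Psme2 products. Psme1 had 116, 101, 108 and 84.7 CPM in the controls and 128, 124, 123 and 118 CPM with IgG. It was the 1 gene of the 10 whose groups did not overlap, where 2.6% of all genes tested had every IgG library above every control, but with total counts alone as the scale 0 of the 10 and 1.16% of all genes had such a gap. The log2 fold change was 0.28 (SE 0.093, unadjusted p = 0.0171, adjusted p = 0.397), with changes of 0.15, 0.29, 0.19 and 0.48 in pairs 1 to 4. With total counts alone it was 0.18 (unadjusted p = 0.112 in the same edgeR test).

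Psme2 had 136, 115, 140.3 and 100.3 CPM in the controls and 153, 153, 166 and 140.0 CPM with IgG. All pairs were higher with IgG, and the groups touched only in control 3 and IgG library 4. The log2 fold change was 0.33 (SE 0.092, unadjusted p = 0.00721, adjusted p = 0.310). Psme2b, a copy of Psme2 with 865 to 1346 counts, may share reads with it, so the value of Psme2 alone is uncertain.

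The TAP transporter is a dimer of the Tap1 and Tap2 products. Tap1 had 67.9, 44.0, 62.1 and 37.9 CPM in the controls and 99.5, 59.8, 95.4 and 53.5 CPM with IgG. Within each pair IgG was higher by nearly the same amount, 0.55, 0.44, 0.62 and 0.50 on the log2 scale, while the groups overlapped because libraries 1 and 3 were high and libraries 2 and 4 low in both groups. With length and GC trends removed the changes were less even, at 0.66, 0.45, 0.72 and 0.44. The log2 fold change was 0.53 (SE 0.086, unadjusted p = 0.000258) with the pairs as a block and 0.54 (SE 0.24, unadjusted p = 0.0507, adjusted p = 0.692) without it. The adjusted p of 0.0520 with the block was under 0.05 when pair 4 was left out, with a likelihood ratio test, with DESeq2, with a looser filter and with length and GC trends removed, and ran from 0.000314 to 0.692 over all alternatives.

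Tap2 had 71.2, 53.3, 69.8 and 50.7 CPM in the controls and 67.6, 62.6, 66.9 and 68.0 CPM with IgG. The IgG libraries lay between the low controls 2 and 4 and the high controls 1 and 3. Changes were -0.07 and -0.06 in pairs 1 and 3 and 0.23 and 0.42 in pairs 2 and 4, for a log2 fold change of 0.13 (SE 0.11, adjusted p = 0.677), which became 0.015 without pair 4, 0.20 without pair 1 and 0.19 without pair 3. It was 0.029 with total counts alone as the scale and 0.33 without pairs 1 and 3 together. The difference between the changes of Tap1 and Tap2 was not tested. Tap2 shares 165 exonic bases with Gm20496 and 533 with Gm15821, both on the other strand.

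Tapbp encodes tapasin, which bridges the transporter and class I. Its level was the highest of the 10 per kilobase, and it had 459, 383, 415 and 309 CPM in the controls and 637, 471, 582 and 442 CPM with IgG. All 4 pairs were higher with IgG, by 0.47, 0.30, 0.49 and 0.52, and control 1 alone lay above an IgG library. The log2 fold change was 0.45 (SE 0.089, unadjusted p = 0.00102, adjusted p = 0.112; without the block SE 0.15 and adjusted p = 0.692). The antisense gene Gm19412, with 2197 to 3588 counts, shares 904 exonic bases with it, and Zbtb22 on the same strand shares 149.

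Erap1, whose product trims peptides in the endoplasmic reticulum, had the widest pairs. It was even in the controls, at 89.5, 78.2, 85.4 and 78.9 CPM, and stood at 163, 93.5, 145 and 67.3 CPM with IgG. IgG libraries 1 and 3 were far above every control and IgG library 4 was below every control. The changes within pairs were 0.86, 0.26, 0.77 and -0.23, for a log2 fold change of 0.42 (SE 0.18, unadjusted p = 0.0430, adjusted p = 0.478). The value rested on single pairs. Without pair 4 it was 0.62, and Erap1 then met the criterion of the study, but it was 0.27 without pair 1, 0.30 without pair 3 and 0.016 without pairs 1 and 3 together (unadjusted p = 0.908 in the same edgeR test). IgG libraries 1 and 3 are the ones with the high mitochondrial share, and Erap1 has the lowest GC content of the 10, 41.5% against 52.5 to 57.1% for the others, and shares 834 exonic bases with Cast on the other strand. With length and GC trends removed, the log2 fold change of Erap1 was 0.35 (SE 0.10, unadjusted p = 0.00770, adjusted p = 0.204, same edgeR test). The changes within pairs were then 0.61, 0.25, 0.51 and 0.0046. A link of its values to GC content or the mitochondrial share was not tested.

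Nlrc5 had 73.9, 41.5, 72.1 and 35.3 CPM in the controls and 77.6, 46.8, 76.5 and 34.0 CPM with IgG. Libraries 1 and 3 were high and libraries 2 and 4 low, with or without IgG, and the highest control was 2.10-fold above the lowest. Between the groups the log2 fold change was 0.07 (SE 0.088, adjusted p = 0.777), which was within the spread of the pairs, from -0.05 to 0.17, and was 0.035 without pair 2.

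A test of the difference between the 4 dates, which takes the 3 block terms of the same fit together and was added after these values were seen, called 2 of the 10 genes, Nlrc5 (adjusted p = 0.0127) and Tap1 (adjusted p = 0.0285), where 0.975% of all genes were called. The next of the 10 was Tapbp (adjusted p = 0.272), and Psmb10 was the last (adjusted p = 0.995). The markers of the oligodendrocyte lineage went the other way, high in libraries 2 and 4 and low in libraries 1 and 3 of both groups. Their part in the difference between dates was not tested.

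Levels can be set against each other only per kilobase of exon. In the controls Tapbp was highest, at 108 ± 17.4 CPM per kb (SD, n = 4), followed by Psme2 (69.7 ± 10.5), Psmb10 (49.8 ± 5.85), Psme1 (46.4 ± 5.97), Psmb8 (32.5 ± 6.18), Tap2 (16.2 ± 2.84), Erap1 (11.4 ± 0.747), Psmb9 (11.1 ± 2.60), Tap1 (9.68 ± 2.61) and Nlrc5 (6.56 ± 2.38). In this order the neighbours Psmb10 and Psme1 lay within 1 SD of each other, as did Erap1 and Psmb9, and Psmb9 and Tap1, and Nlrc5 was little more than 1 SD under Tap1. With IgG, Tapbp was at 147 ± 25.3, Psme2 at 86.8 ± 6.04 and Tap1 at 14.1 ± 4.34 CPM per kb. The length is that of all annotated exons of a gene joined, which understates the level of genes with long rare isoforms.

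Across pairs, the median change of the 10 genes was 0.19 in pair 1, 0.29 in pair 2, 0.20 in pair 3 and 0.49 in pair 4, against 0.00 to 0.02 over all genes. Psmb8, Psme1, Psme2, Tap1 and Tapbp were higher with IgG in all 4 pairs, 5 of 10 where 10.4% of all genes tested were (4 of 10, without Psme1, with total counts alone as the scale, where 5.62% of all genes were). Psmb10 and Tap2 were lower in pairs 1 and 3, Erap1 and Nlrc5 in pair 4, and Psmb9 was level in pair 3 (-0.0015). When the trends of the counts on exon length and GC content were removed in each library, 10 of 10 were higher in all 4 pairs, where 12.5% of all genes were. Psmb10 and Tap2 then changed by 0.17 and 0.11 in pair 1 and by 0.21 and 0.11 in pair 3. Erap1 in pair 4 was all but level, at 0.0046. The pairs of Tap1 and Tapbp became less even, with Tapbp at 0.67, 0.30, 0.67 and 0.36 in pairs 1 to 4. In this fit 3 of the 10 were called, against 1.12% of all genes called higher: Tap1 (log2 fold change 0.57, adjusted p = 0.00993), Tapbp (0.50, adjusted p = 0.0359) and Psme2 (0.36, adjusted p = 0.0396). The median stayed at 0.34, and 9 of the 10, all but Nlrc5, were higher at an unadjusted p under 0.05, where 8.6% of all genes were.

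**Figure D3:**
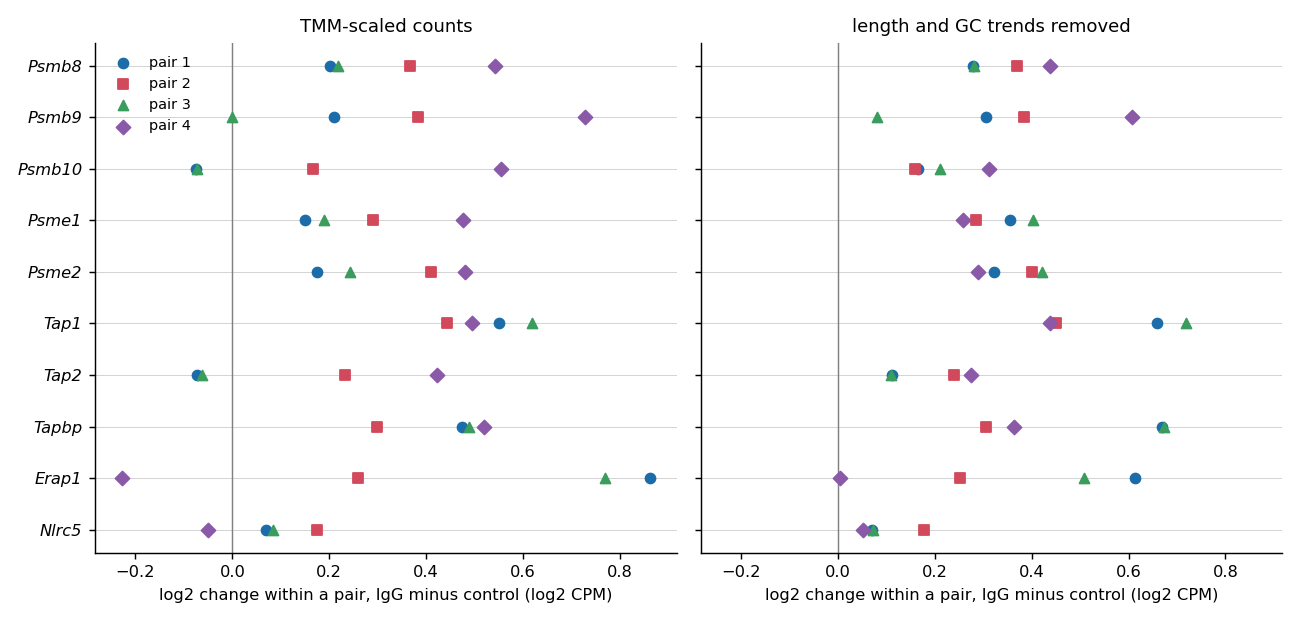
Change of each gene within the 4 pairs, in log2 CPM of IgG minus control, from counts scaled with TMM (left) and after trends on exon length and GC content were removed per library (right). On the left Psmb10 and Tap2 lie below 0 in pairs 1 and 3, Erap1 and Nlrc5 in pair 4, and Psmb9 at 0 in pair 3, and on the right every point lies above 0.

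The other genes of the route were read from the same fit in 8 lists, with 70 genes. None of the 70 was called with the block or without it, and at an unadjusted p under 0.05 with the block 10 were higher and 0 lower, where 6.35% of all genes tested were higher. Of the 3 constitutive catalytic subunits 0 passed that threshold. Of the 11 other subunits of the 20S core 3 did, and their median log2 fold change was 0.14, with values from 0.05 for Psmb4 to 0.26 for Psma6. Of the 18 subunits of the 19S cap, which recognizes ubiquitinated proteins, 1 did (Psmc3), a share near that of all genes, with a median of 0.14 and values from -0.11 for Adrm1 to 0.25 for Psmd1. The 8 other regulators and assembly factors had a median of 0.03, from -0.05 for Psmg3 to 0.28 for Psme4, and none passed. The median of the 10 genes, 0.33, was above each of these, but the difference between lists was not tested.

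Closer to class I itself, the 6 other loading chaperones of the endoplasmic reticulum had a median of 0.19, from 0.09 for Tapbpl to 0.26 for Pdia3, the oxidoreductase joined to tapasin and the 1 of them with an unadjusted p under 0.05. The class I molecule itself was listed with 3 genes. Their median of 0.47 was above the 0.33 of the 10 genes, a difference that was not tested. H2-K1, a heavy chain, stood at 767, 606, 836 and 538 CPM in the controls and 1187, 851, 1199 and 921 CPM with IgG, with no overlap between the groups, for a log2 fold change of 0.60 (adjusted p = 0.0509). B2m, the light chain, changed by 0.47 (adjusted p = 0.143) and H2-D1 by 0.23 (adjusted p = 0.532). Heavy chains resemble each other closely, so their counts are uncertain as single genes. The 7 other peptidases had a median of 0.12, from 0.03 for Thop1 to 0.25 for Nrd1, and none passed.

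Of 14 transcription regulators of class I and interferon-responsive genes, 5 had values above 0 and 9 below, with a median of -0.01, and 3 were higher at an unadjusted p under 0.05, Stat2 and Irf9 among them. Stat2, which carries the interferon signal to the nucleus, had 227, 163, 186 and 111 CPM in the controls and 312, 214, 281 and 139 CPM with IgG. Like Tap1 it was high in libraries 1 and 3 of both groups and higher with IgG in every pair, with a log2 fold change of 0.45 (adjusted p = 0.110). Irf9 changed by 0.25 (adjusted p = 0.424). Irf1, a factor known to act on the Psmb9 and Tap1 promoter, changed by -0.07 (adjusted p = 0.826), and Ciita, the class II counterpart of Nlrc5, had the lowest value, -0.31 (SE 0.36, adjusted p = 0.757). With length and GC trends removed, H2-K1 and Stat2 were among the genes of these lists that were called (adjusted p = 0.00855 and 0.0197).

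**Figure D4:**
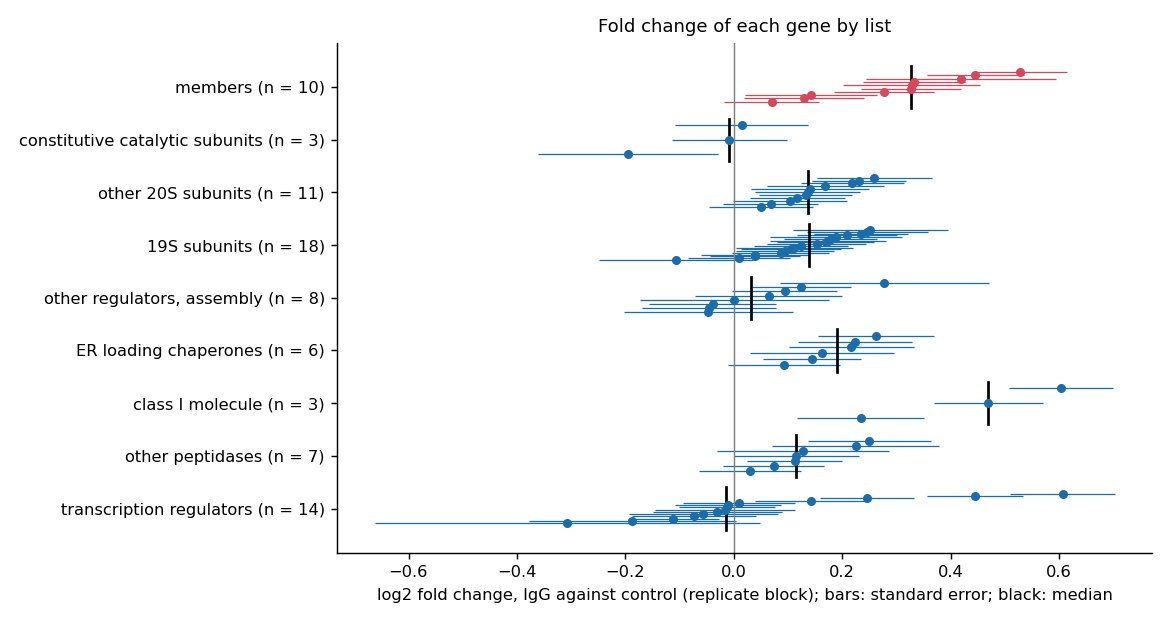
Log2 fold change of IgG against control for each gene, with pairs as a block, in the 10 genes (red) and the 8 related lists (blue), with standard errors as bars and the median of each list as a black line. The 10 genes lie between 0.07 and 0.53, the class I molecule between 0.23 and 0.60, and the constitutive catalytic subunits between -0.20 and 0.01.

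The levels of the 10 genes across the 8 libraries were put together as the mean of their z-scores, which was lowest in control 4 (-1.62) and control 2 (-0.92) and highest in IgG libraries 1 (0.99) and 3 (0.83). Psmb8 was closest to this mean, with a Pearson's r of 0.99, and Psmb10 farthest from it, with 0.63. Each of the 10 is part of the mean, which raises its own r, so these values cannot be set beside those of other genes. Among the 15669 genes compared, the 5 closest outside the 10 were Atrip (0.991), Gm20496 (0.990), Trex1 (0.989), Ifitm3 (0.988) and Ctla2b (0.986). These correlations over 8 libraries describe a likeness only, since the libraries share dates in pairs, and Gm20496 overlaps Psmb8 and Tap2 on the other strand. Atrip had 65.5, 49.8, 62.9 and 38.0 CPM in the controls and 85.7, 66.7, 76.2 and 63.5 CPM with IgG. That was a little above Trex1, given below, in every library. Whether Atrip and Trex1 share reads was not tested, so they are not taken as separate examples.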

How the data were processed

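The deposited values are raw counts for each Ensembl gene. The authors filtered the reads, aligned them to mm10 with HISAT2 and counted them, with no normalization. The submitters' processing notes name HISAT2 2.2.1, SAMtools 1.12, Picard 2.26.3, featureCounts, R 4.1.2 and edgeR 3.36.0. The annotation, the use of strand and the treatment of reads with several alignments are not given in the sources used here. Symbols, exon lengths and GC content came from GENCODE M21 (55144 of 55385 identifiers matched).

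Counts were scaled with TMM, filtered with filterByExpr and tested with edgeR 4.0.16 in R 4.3.3 (quasi-likelihood test, group with the replicate number as a block, Benjamini-Hochberg over 17537 genes). Replicate numbers pair the libraries because the labels give both libraries of a number 1 date. Deviations from group means correlated at 0.256 to 0.408 between libraries of the same number and at -0.342 to 0.198 otherwise (15669 genes). Log2 CPM used a prior count of 2, ratios an added 0.5 counts. Members are all named with values in every library, and of each list the highest and lowest gene, except for some items that are not reported here. At this depth 3 counts are 0.124 to 0.147 CPM. Scripts were tested on simulated data. Alternatives were the fit without the block, other scalings, filters and tests (DESeq2 1.42.0, limma 3.58.1), trends on length and GC content removed (lowess, span 0.3) and each pair left out. The omission of pairs 1 and 3 together, the ratios with trends removed and the test of differences between dates were added after seeing the data. The members and lists were chosen with earlier results of these data known.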

Additional observations from a re-analysis of the deposited data

How the results depend on the processing

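The median of the 10 genes was 0.31 without the replicate block, 0.23 with total counts alone, which moved the median of all genes to -0.11, and 0.22 to 0.34 when 1 pair was left out. It stayed above 0 under every alternative. In 2 fits the sign of a gene changed: Nlrc5 was at -0.031 with total counts alone and Psmb10 at -0.010 without replicate 4. Called genes numbered 0 without the replicate block, with RLE scaling, total counts alone, at least 10 counts in every library and limma-voom. They numbered 2 (Tap1 and Tapbp) with every gene of at least 1 count, with DESeq2 and with the likelihood ratio test, 3 with length and GC trends removed, and 0 to 1 when 1 pair was left out, the 1 being Tap1 without pair 4. The criterion of the study was met by 0 genes without the replicate block, with total counts alone and with at least 10 counts in every library, by 2 with length and GC trends removed, and by 0 to 2 when 1 pair was left out (0 without pair 3, 2 without pair 4). Over all genes, those that met it numbered 320 in the main design (260 higher), 148 without the block, 312 with total counts alone, 282 with at least 10 counts in every library, 332 with trends removed, 216 without pair 3 and 762 without pair 4 (427 higher). The cause of these differences was not tested.

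Without pairs 1 and 3 together, whose IgG libraries had the high mitochondrial share, 1 gene was called, Psmb9 (log2 fold change 0.56), 1 met the criterion and the median was 0.40, with 1 residual degree of freedom. Over all 17757 genes tested there, 190 were called (154 higher) and 327 met the criterion. The replicate block changed no call of a related gene. The mean change of the 3 ratios stayed above 0 without the pairing, with 0 or 5 added to the counts, with length and GC trends removed (0.48, 0.31 and 0.31, with pair 4 of Psmb10/Psmb7 at -0.06) and when 1 pair was left out, from 0.43 to 0.66 for Psmb8/Psmb5, 0.29 to 0.35 for Psmb9/Psmb6 and 0.12 to 0.18 for Psmb10/Psmb7 in the last, where no p under 0.25 is possible.

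Across the whole table, genes called with the block numbered 69, against 0 without it, 376 with every gene of at least 1 count, 231 with DESeq2, 327 with the likelihood ratio test, 207 with length and GC trends removed, and 0 (without pair 2, with 1615 at an unadjusted p under 0.05) to 182 (without pair 4). Counts behind the members' values ran from 707 to 13778, and the number of pairs is 4.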

Other observations

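Psmb9 and Tap1 are transcribed away from each other, with RefSeq starts 225 bases apart, and their GENCODE models overlap by 212 exonic bases on opposite strands. Their changes with IgG nevertheless had a different order across pairs. Tap1 was higher by 0.44 to 0.62 on the log2 scale in each pair, while Psmb9 ran from -0.00 in pair 3 to 0.73 in pair 4. Reads in the shared bases may go to either gene.

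Trex1, which degrades DNA in the cytosol, and Ifitm3, an antiviral membrane protein, were among the 5 genes most like the 10 in level across libraries. Trex1 had 56.3, 41.3, 54.4 and 29.7 CPM in the controls and 75.7, 57.4, 65.7 and 54.8 CPM with IgG, and Ifitm3 had 230, 145, 197 and 95.6 CPM in the controls and 320, 206, 264 and 194 CPM with IgG. Both had control 4 as their lowest library, as 8 of the 10 genes did. This goes with their choice by likeness to the mean of the 10, which was lowest in control 4, and adds nothing to it. Neither Trex1 nor Ifitm3 passed adjustment over all genes (adjusted p = 0.169 and 0.104, edgeR's quasi-likelihood test with the block).

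The levels of the 10 genes and of the 3 ratios gave 26 groups of 4 libraries, and in 0 of them did 1 library stand apart by Dixon's criterion, which chance meets in about 5% of groups.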
